A study of Mus musculus with 6 samples.

Results

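Open chromatin at 9 genes of the intestinal mucus layer, Muc1, Muc2, Muc4, Muc13, Tff3, Clca1, Agr2, Fcgbp and Zg16, was examined in mouse intestinal organoids, epithelial cultures grown in a gel from isolated crypts. The genes were chosen by name, and a consensus peak was counted as theirs when its centre lay within 50 kb of an end of the gene and nearer to it than to any other protein-coding gene. This gave 63 of 90823 peaks, from 1 peak at Zg16 to 12 at Muc13. The assay was ATAC-seq, in which a transposase cuts accessible DNA and inserts sequencing adapters there, on epithelial cells sorted from the organoids. Organoids received 25 µM arachidonic acid (AA), a fatty acid from which cells make prostaglandins, 50 nM prostaglandin E2 (PGE2), or vehicle. Treatment lasted 3 days in each group, and each group had 2 libraries. All groups shared a medium with the growth factors EGF, Noggin and R-spondin, the supplements B27 and N2, acetylcysteine, CHIR-99021, which activates Wnt signalling, and Y-27632, a kinase inhibitor. The submitters' design text names a dimethyl derivative of PGE2 where the sample labels say PGE2, so the compound is called PGE2 here. The labels state neither the mouse strain, sex and age nor the region of intestine. Nor do they state whether the libraries of a group came from separate cultures, so p-values measure the spread between these libraries, which may be technical.

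Goblet cells make the mucus that covers the gut lining by packing gel-forming mucin into granules and releasing it, where it takes up water and expands. Other secreted proteins bind or process this gel, and a protein disulfide isomerase in the endoplasmic reticulum is needed to fold the mucin. Membrane-bound mucins form a separate layer on the surface of enterocytes and other epithelial cells, so not every gene examined here marks goblet cells. An ATAC-seq peak is a stretch of accessible DNA and not a transcript, and a peak near a gene need not regulate it. In a bulk culture, fewer cells of a type and less accessibility per cell cannot be told apart.

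The libraries held 12374232 to 14236985 counts, and the mucus gene peaks took 0.0706% to 0.0758% of them. The epithelial identity of the cells was checked with a list of 10 genes such as Epcam and Cdh1. Of these 9 had a peak within 1 kb of a gene end, with a summed level of 878 to 922 CPM per library, where CPM are counts scaled to a common library total. The goblet cell list, which holds 6 of the genes examined here, had such a peak at 7 of 10 genes, with sums of 145 and 146 CPM in AA libraries, 142 and 152 CPM in PGE2 libraries, and 168 and 163 CPM in vehicle libraries. Over all peaks of its 10 genes, at gene ends and elsewhere, the sums were 805 and 816 CPM in AA libraries, 767 and 787 CPM in PGE2 libraries, and 807 and 804 CPM in vehicle libraries. With AA the level was thus below vehicle at gene ends and not over all peaks. With PGE2 it was below vehicle in both. The gene-end sums also hold Atoh1 and Spink4, which are not among the genes examined here. No gene-end peak of Muc2, Tff3, Clca1, Agr2 or Fcgbp was called with AA by the test described below. The Agr2 start peak averaged 36.5 CPM with AA and 38.6 CPM with vehicle, and the Fcgbp start peak 28.6 and 30.3 CPM. For 6 immune genes the sums were 45.8 and 40.1 CPM in AA libraries, 39.8 and 43.7 CPM in PGE2 libraries, and 34.4 and 36.2 CPM in vehicle libraries, and the defining genes Ptprc, Cd3e and Cd79a had no peak at a gene end. For 5 crypt base stem cell genes they were 124 and 132 CPM in AA libraries, 146 and 142 CPM in PGE2 libraries, and 140 and 142 CPM in vehicle libraries. Over all 47 peaks of these stem cell genes the sums were 604 and 608 CPM in AA libraries, 663 and 683 CPM in PGE2 libraries, and 719 and 724 CPM in vehicle libraries. Of the 47, AA made 3 higher and 18 lower (44.7%), and PGE2 made 3 higher and 15 lower (38.3%), by the test described below. Over all peaks tested, the shares were 30.5% with AA and 24.9% with PGE2. The part of such shifts in the results below was not tested.

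The promoter sequences of 4 of the genes are shown because their annotated starts lay wholly or partly under a peak, so that the letters are those of the DNA measured. Each window runs from 250 bases before to 50 bases after a transcript start (RefSeq, GRCm38.p6, the assembly of mm10), and 7 such windows were matched, for Muc1, Muc2, Muc4, Muc13, Agr2 and Fcgbp. Capitals mark matches, on either strand, to the 8 motifs searched.
Muc2, chr7:141690090-141690389, + strand: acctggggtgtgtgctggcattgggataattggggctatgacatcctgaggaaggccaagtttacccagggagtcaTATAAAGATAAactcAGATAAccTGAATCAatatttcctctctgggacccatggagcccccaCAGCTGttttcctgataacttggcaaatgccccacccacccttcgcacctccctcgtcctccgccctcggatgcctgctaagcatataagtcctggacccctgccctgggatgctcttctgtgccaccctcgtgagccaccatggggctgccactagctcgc
Muc13 first start, chr16:33793787-33794086, + strand: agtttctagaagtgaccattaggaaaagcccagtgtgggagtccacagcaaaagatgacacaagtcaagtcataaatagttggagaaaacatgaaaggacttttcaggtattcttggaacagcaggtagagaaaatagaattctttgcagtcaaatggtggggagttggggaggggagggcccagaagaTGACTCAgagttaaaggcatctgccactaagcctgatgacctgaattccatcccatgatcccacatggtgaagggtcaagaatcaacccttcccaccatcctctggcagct
Muc13 second start, chr16:33794239-33794538, + strand: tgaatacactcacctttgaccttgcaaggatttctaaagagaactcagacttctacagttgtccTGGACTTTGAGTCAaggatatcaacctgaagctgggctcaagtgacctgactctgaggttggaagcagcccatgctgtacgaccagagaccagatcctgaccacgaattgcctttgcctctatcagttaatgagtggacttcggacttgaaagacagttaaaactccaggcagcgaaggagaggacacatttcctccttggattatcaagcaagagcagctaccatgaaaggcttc
Agr2, chr12:35992675-35992974, + strand: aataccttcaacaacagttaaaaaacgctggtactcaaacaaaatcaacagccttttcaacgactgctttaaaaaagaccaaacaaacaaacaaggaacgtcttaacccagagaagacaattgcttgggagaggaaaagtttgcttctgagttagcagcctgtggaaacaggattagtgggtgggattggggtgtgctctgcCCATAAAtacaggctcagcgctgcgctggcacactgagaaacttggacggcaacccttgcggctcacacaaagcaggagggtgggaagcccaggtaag
Fcgbp, chr7:28070986-28071285, + strand: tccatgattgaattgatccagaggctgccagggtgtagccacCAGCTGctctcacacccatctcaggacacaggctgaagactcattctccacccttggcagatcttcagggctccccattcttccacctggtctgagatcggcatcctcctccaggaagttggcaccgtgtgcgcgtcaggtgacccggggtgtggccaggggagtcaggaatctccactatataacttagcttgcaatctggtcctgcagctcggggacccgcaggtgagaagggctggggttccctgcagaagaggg
Muc13 has 2 annotated starts, the first of which had 147 of its 300 bases under the peak. The windows of Muc1 and Muc4 had 0 bases under a peak and are not printed.

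The motifs were searched on both strands and set beside their share of 32851 RefSeq promoter windows of mouse genes. A TATA box was searched as TATAAA and was in 13.6% of all windows. The AP-1 motif, bound by Fos and Jun proteins, was searched as TGANTCA and was in 7.81%. The cAMP response element was searched as TGACGTCA and was in 1.79%. An E-box of the kind bound by basic helix-loop-helix factors was searched as CAGCTG and was in 16.3%. The motif of the gut homeodomain factors CDX was searched as TTTATNG and was in 10.9%. The forkhead motif of FOXA factors was searched as TGTTTAC and was in 3.65%. The motif of GATA factors was searched as AGATAA and was in 11.2%, and that of the nuclear receptor HNF4 as CAAAGTNCA, which was in 1.41%. The Muc2 window held a TATA box match at -174 from the start, GATA matches at -169 and -159, an AP-1 match at -151 and an E-box at -112. The first GATA match shares a base with the TATA box match. The Muc13 windows held an AP-1 match at -61 from the first start and another at -179 from the second, which overlaps the HNF4 match at -186. The Agr2 window held a CDX match at -48 and the Fcgbp window an E-box at -208. The cAMP response element and the FOXA motif had no match in these windows. A match describes the letters and is not a binding site.

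In vehicle organoids the genes differed widely in accessibility per length. Summed over a gene's peaks and divided by the bases they covered, the level was 60.0 ± 1.8 CPM per kb at Zg16 (SD, n = 2), 43.2 ± 1.0 at Muc1, 29.7 ± 1.7 at Muc4, 26.4 ± 0.67 at Muc13, 25.6 ± 0.70 at Fcgbp, 21.7 ± 0.34 at Agr2, 20.6 ± 0.33 at Tff3, 17.0 ± 0.39 at Clca1 and 10.2 ± 0.35 at Muc2. The median over 16827 genes with a peak was 16.1 CPM per kb on the same scale. Zg16 lay above 98.1% of genes, while Muc2, the gene of the main secreted mucin, lay above 28.9%. Muc13 and Fcgbp did not differ beyond their spread, and the other neighbours in this order had vehicle libraries that did not overlap. Zg16 was represented by 1 peak over 18 kb from the gene (18498 bp), so its rank rests on that region alone. Gene sums are scaled to the counts in peaks assigned to a gene, and single peaks to the counts in all peaks, so the scales differ.

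**Figure D1:**
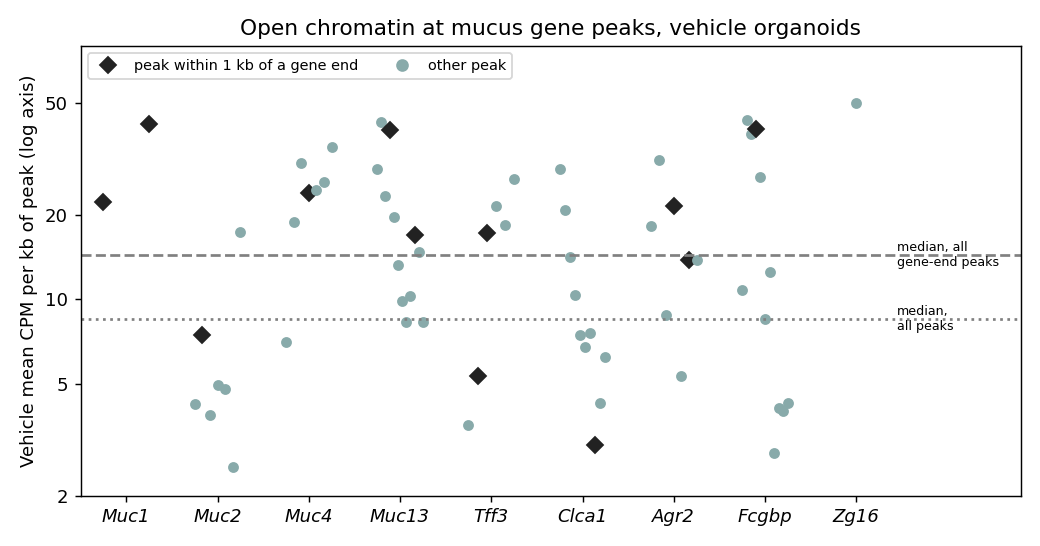
Level of each of the 63 peaks in vehicle organoids, as the mean CPM per kb of peak over 2 libraries on a log axis, by gene, in order along the chromosome within a gene. Diamonds are the 12 peaks within 1 kb of a gene end, and the lines mark the medians of 14.4 CPM per kb over all gene-end peaks and 8.51 CPM per kb over all peaks. The Muc2 start peak, at 7.45 CPM per kb, lies below both medians.

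Against vehicle, AA changed 20 of the 63 mucus gene peaks by edgeR's quasi-likelihood test (adjusted p under 0.05), 10 higher and 10 lower. That is 31.7%, against 30.5% of all peaks tested, of which 16.7% were higher and 13.8% lower, so the share was near the background. PGE2 changed 16 peaks, 5 higher and 11 lower. That is 25.4%, against 24.9% of all peaks, of which 14.3% were higher and 10.6% lower. Between AA and PGE2 organoids 3 peaks differed, 2 higher and 1 lower in AA, or 4.76% against a background of 9.95%, with 5.06% higher and 4.88% lower. The median log2 change over the 63 peaks was -0.08 for AA against vehicle, 0.00 for PGE2 against vehicle and 0.00 for AA against PGE2, beside -0.02, -0.00 and -0.01 over all peaks. The changes lay at particular peaks of 6 genes in each vehicle comparison, and with AA they went both ways within Muc2, Muc4, Muc13 and Clca1. The AA and PGE2 comparisons share their vehicle libraries, so their values are given side by side below and are not independent of each other.

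Of the 12 peaks at gene ends, AA made 1 higher and 2 lower than vehicle, and PGE2 made 1 higher and 1 lower. Over all 16077 gene-end peaks tested, 14.6% were higher and 8.13% lower with AA, and 31.0% were higher and 5.59% lower with PGE2. The median log2 change of gene-end peaks with PGE2 was 0.13 over all genes and -0.01 over the 12 mucus gene peaks.

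**Figure D2:**
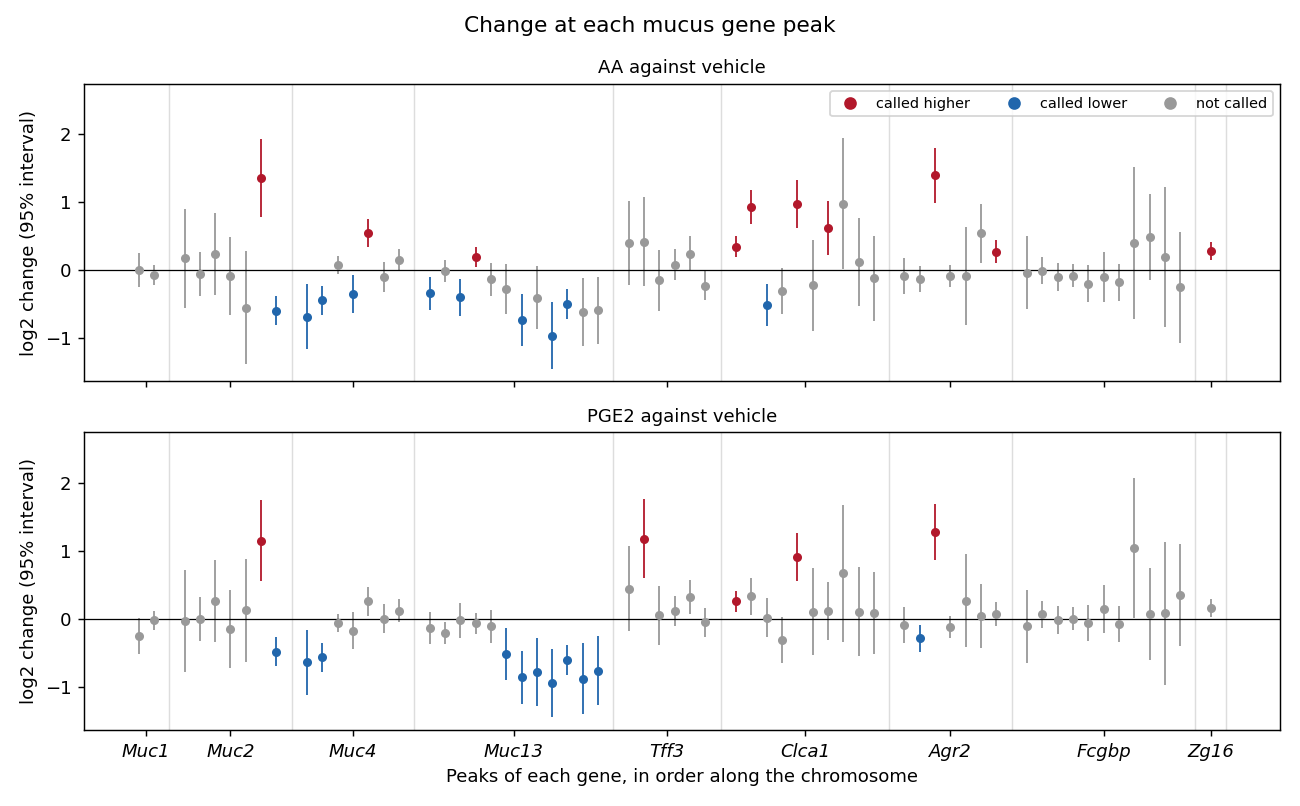
log2 change with its 95% interval at each of the 63 peaks, grouped by gene, for AA against vehicle (upper panel) and PGE2 against vehicle (lower panel). Red and blue points passed the test as higher or lower, and grey points did not; Muc13 holds 7 of the 11 peaks that were lower with PGE2.

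Muc2 encodes the gel-forming mucin that makes up the bulk of intestinal mucus, and it had 7 peaks, 2 of them called in each vehicle comparison and in opposite directions. The peak over its start (chr7:141689647-141690523) had 7.11 and 5.30 CPM in AA libraries, 6.41 and 6.64 CPM in PGE2 libraries, and 6.51 and 6.56 CPM in vehicle libraries. The groups overlapped. The log2 change was -0.06 for AA against vehicle (95% interval -0.38 to 0.26) and -0.00 for PGE2 against vehicle (-0.32 to 0.32). Per length, the level of this start peak was low, at 7.45 CPM per kb in vehicle organoids, above 26.7% of gene-end peaks.

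Beyond the far end of Muc2, 3898 bp from it, a weak peak (chr7:141758339-141758839) had 3.52 and 2.94 CPM in AA libraries, 2.52 and 3.09 CPM in PGE2 libraries, and 1.53 and 0.992 CPM in vehicle libraries. Every treated library was above both vehicle libraries. The peak rose 2.56-fold with AA (log2 1.36 ± 0.29 SE, adjusted p = 0.000228) and 2.21-fold with PGE2 (log2 1.15 ± 0.30, adjusted p = 0.00302). The PGE2 call was lost by DESeq2 (adjusted p = 0.081) and without vehicle replicate 2 (adjusted p = 0.0888).

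Farther out, 16316 bp past Muc2 and 17950 bp from Muc5ac, a gel-forming mucin of the stomach and airway, lay the Muc2 peak with the most counts (chr7:141770428-141771587). It had 13.2 and 13.5 CPM in AA libraries, 13.0 and 15.7 CPM in PGE2 libraries, and 19.7 and 20.7 CPM in vehicle libraries. Both treatments were below vehicle with no overlap. The peak fell by 0.60 on the log2 scale with AA (± 0.11 SE, adjusted p = 2.1e-05) and by 0.49 with PGE2 (± 0.11, adjusted p = 0.000465). DESeq2 kept the AA call and not the PGE2 call (adjusted p = 0.0518). No peak was assigned between the Muc2 peak that ends at 141699967 and the gene's far end, so the rest of the gene body was not measured.

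Among the membrane-bound mucins, Muc13 had the most peaks, 12, and the most calls, with 1 higher and 5 lower with AA and 7 lower with PGE2. Muc4, with 7 peaks, had 1 higher and 3 lower with AA and 2 lower with PGE2. Over all peaks tested, 13.8% were lower with AA and 10.6% with PGE2. At Muc13 the PGE2 calls, and not those with AA, all lay in the later part of the locus. The 7 peaks from 8074 bp inside the gene to 3386 bp past its end were all called lower with PGE2, and 3 of them with AA. Those past the end lay 6350 to 8964 bp from the next gene, Itgb5. Of the 5 peaks around its start, 0 were called with PGE2, 1 of them with an unadjusted p under 0.05, while AA made 1 higher and 2 lower. This division of the gene was made after the values were seen. Muc13 encodes a mucin of the enterocyte surface that also has EGF-like domains. Of 6 marker genes of absorptive enterocytes, 5 had peaks, 24 in all. By edgeR, AA made 6 of the 24 higher and 4 lower (41.7%, against 30.5% of all peaks). PGE2 made 0 higher and 7 lower (29.2%, against 24.9%). With PGE2, 9 of the 24 had an unadjusted p under 0.05 by edgeR, and DESeq2 called 3 of these 24 peaks. Over these peaks the sums were 292 and 293 CPM in AA libraries, 257 and 256 CPM in PGE2 libraries, and 298 and 310 CPM in vehicle libraries, and at gene ends alone 77.9 and 80.4 CPM in AA libraries, 75.7 and 80.2 CPM in PGE2 libraries, and 81.3 and 83.5 CPM in vehicle libraries. Their part in the Muc13 values was not tested.

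The Muc13 start peak (chr16:33793940-33794868), which holds the second start sequence shown above and part of the first, had 41.2 and 44.4 CPM in AA libraries, 35.6 and 35.8 CPM in PGE2 libraries, and 37.0 and 37.9 CPM in vehicle libraries. AA libraries were the highest and PGE2 libraries the lowest, and no groups overlapped. It rose 1.14-fold with AA against vehicle (log2 0.19 ± 0.07 SE, adjusted p = 0.0394), and was 1.20-fold higher with AA than with PGE2 (log2 0.26 ± 0.07, adjusted p = 0.015). With PGE2 against vehicle the log2 change was -0.07 (95% interval -0.22 to 0.08). The AA calls were not made by DESeq2 (adjusted p = 0.347 against vehicle and 0.267 against PGE2), and the call against vehicle was also lost with library totals in place of TMM scaling, with gene-end peaks scaled on their own, and without either vehicle library. Both calls were lost without AA replicate 2.

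At the far end of Muc13, 772 bp past it, a peak (chr16:33820187-33821216) had 12.4 and 12.3 CPM in AA libraries, 12.2 and 10.7 CPM in PGE2 libraries, and 17.4 and 17.5 CPM in vehicle libraries. Treated libraries were below vehicle with no overlap. The peak fell by 0.50 on the log2 scale with AA (± 0.11 SE, adjusted p = 0.00039) and by 0.61 with PGE2 (± 0.11, adjusted p = 4.63e-05). The PGE2 call held under all 13 alternative fits, which are other scalings, no filter, DESeq2, each library left out, a replicate block and only the groups compared. The AA call was lost by DESeq2 alone (adjusted p = 0.067).

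Inside Muc13, the peak at chr16:33813553-33813903 had 1.90 and 1.79 CPM in AA libraries, 1.83 and 1.93 CPM in PGE2 libraries, and 3.52 and 3.74 CPM in vehicle libraries. It was 1.96-fold lower with AA (log2 -0.97 ± 0.25 SE, adjusted p = 0.00206) and 1.93-fold lower with PGE2 (log2 -0.95 ± 0.25, adjusted p = 0.00326). The peak at chr16:33806381-33806955 had 3.38 and 3.43 CPM in AA libraries, 3.59 and 2.62 CPM in PGE2 libraries, and 5.44 and 5.87 CPM in vehicle libraries. It was 1.66-fold lower with AA (adjusted p = 0.00258) and 1.82-fold lower with PGE2 (adjusted p = 0.00076). These body peaks were weak, and DESeq2 made none of these 4 calls (adjusted p 0.0661 to 0.145). The other 4 peaks of that stretch were lower with PGE2 by 0.52 to 0.88 on the log2 scale, and each of these calls was lost by DESeq2, without vehicle replicate 2 and without at least 1 of the PGE2 libraries. Upstream of Muc13, the peaks 8574 and 1276 bp from the start were lower with AA by 0.34 and 0.40 on the log2 scale (adjusted p = 0.0264 and 0.0198). Both calls were lost by DESeq2, without AA replicate 2 and without either vehicle library, and the second also without AA replicate 1.

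**Figure D3:**
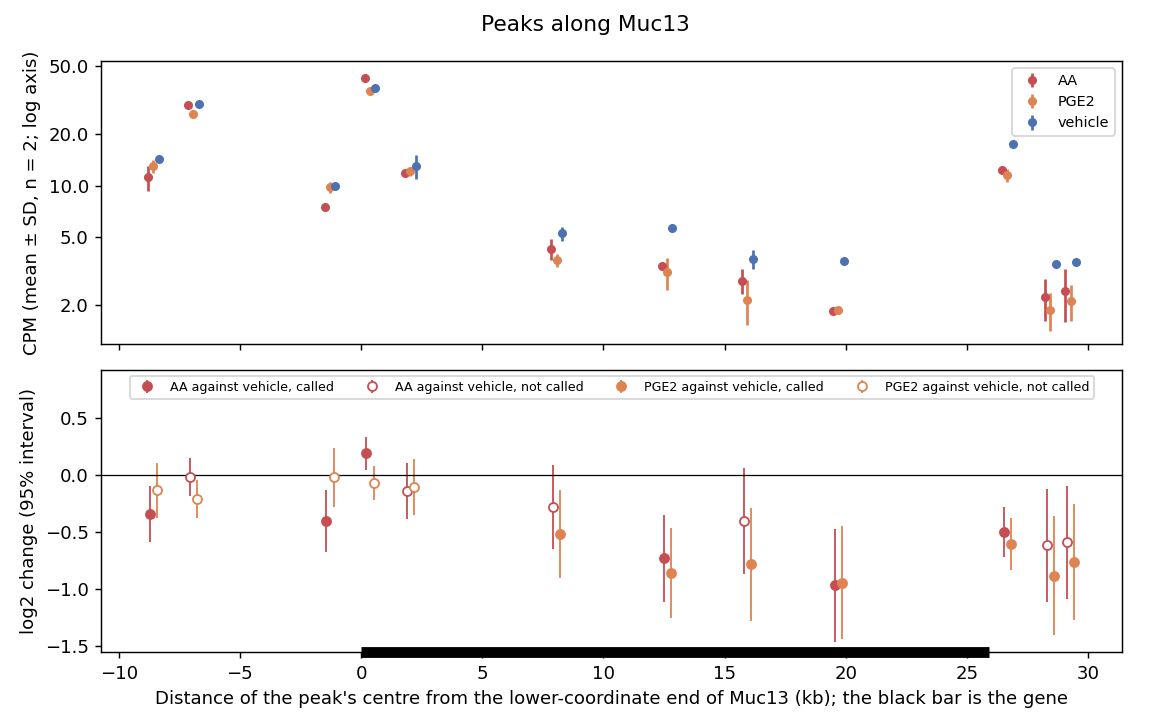
Peaks along Muc13, placed by the distance of their centre from the start of the gene in kb, with points offset sideways for visibility. The upper panel gives mean CPM ± SD (n = 2, log axis) in AA, PGE2 and vehicle organoids, and the lower panel the log2 change with its 95% interval; with PGE2, all 7 peaks from 8 kb on (8074 bp for the first) are lower, and the start peak is higher with AA.

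Muc4 encodes a large membrane mucin. Of its 7 peaks, AA made 1 higher and 3 lower, and PGE2 made 2 lower. The peak 3072 bp inside the gene (chr16:32738635-32739280) had 25.1 and 21.0 CPM in AA libraries, 17.8 and 20.0 CPM in PGE2 libraries, and 15.9 and 15.8 CPM in vehicle libraries. AA libraries were the highest and vehicle libraries the lowest. It rose 1.46-fold with AA (log2 0.55 ± 0.10 SE, adjusted p = 4.66e-05), a call held under all 13 alternatives. PGE2 against vehicle gave log2 0.25 ± 0.11 (adjusted p = 0.074) and AA against PGE2 gave log2 0.29 ± 0.10 (adjusted p = 0.0524).

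Upstream of Muc4 the direction was the opposite. The peak 12255 bp before the start (chr16:32723070-32724192) had 14.8 and 16.3 CPM in AA libraries, 13.4 and 15.2 CPM in PGE2 libraries, and 19.9 and 22.4 CPM in vehicle libraries. Treated libraries were all below vehicle. It fell by 0.45 on the log2 scale with AA (± 0.10 SE, adjusted p = 0.000748) and by 0.56 with PGE2 (± 0.11, adjusted p = 6.11e-05). The PGE2 call held under all 13 alternatives, and the AA call was lost by DESeq2 (adjusted p = 0.0869). A weaker peak 22109 bp before the start was lower by 0.69 with AA and by 0.64 with PGE2 (log2, adjusted p = 0.0252 and 0.0431), and lost both calls by DESeq2 and without vehicle replicate 2. Its AA call was also lost without AA replicate 2, and its PGE2 call without either PGE2 library and with gene-end peaks scaled on their own. The peak nearest the Muc4 start (chr16:32736014-32736416) had 7.11 and 8.08 CPM in AA libraries, 8.78 and 8.33 CPM in PGE2 libraries, and 9.27 and 10.1 CPM in vehicle libraries. Its fall with AA (log2 -0.35 ± 0.14, adjusted p = 0.043) was lost under 6 of 13 alternatives, among them DESeq2 (adjusted p = 0.404) and the omission of any AA or vehicle library. The Muc4 peak with the most counts, 6839 bp before the start, was called in no comparison and had 48.7 ± 0.96 CPM with AA, 44.5 ± 1.0 CPM with PGE2 and 46.4 ± 1.7 CPM with vehicle (SD, n = 2).

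Muc1, a membrane mucin found on many epithelia, had 2 peaks, and edgeR called neither in any comparison, with 0 at an unadjusted p under 0.05 by edgeR or DESeq2. The peak at its high-coordinate end (chr3:89233239-89234265) had 39.7 and 42.8 CPM in AA libraries, 41.0 and 44.6 CPM in PGE2 libraries, and 44.2 and 42.7 CPM in vehicle libraries, and lay 371 bp from the Muc1 end and 417 bp from Trim46. The peak before its start (chr3:89228068-89228517) had 10.3 and 9.63 CPM in AA libraries, 8.70 and 8.10 CPM in PGE2 libraries, and 10.3 and 9.77 CPM in vehicle libraries. PGE2 libraries were the lowest there (log2 -0.25 against vehicle, 95% interval -0.52 to 0.01), and AA and vehicle libraries overlapped.

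Among the secreted partners of the mucin gel, Clca1 had the most called peaks with AA. Clca1 encodes a secreted metalloprotease of goblet cell mucus. AA made 4 of its 10 peaks higher and 1 lower, and PGE2 made 2 higher. PGE2 made 0 lower by edgeR, which put 3 of the 10 at an unadjusted p under 0.05, and DESeq2 called 1 of the 10, a higher one, which was also the 1 with an unadjusted p under 0.05. The peak 7670 bp below the gene's low-coordinate end (chr3:144996668-144997066) had 14.8 and 17.0 CPM in AA libraries, 11.5 and 9.41 CPM in PGE2 libraries, and 7.89 and 8.77 CPM in vehicle libraries. AA libraries were the highest, with no overlap between groups. It rose 1.90-fold with AA against vehicle (log2 0.93 ± 0.13 SE, adjusted p = 1.25e-07), a call held under all 13 alternatives. AA exceeded PGE2 1.51-fold (log2 0.60 ± 0.12, adjusted p = 0.000795), a call lost by DESeq2 alone (adjusted p = 0.0876), while PGE2 against vehicle gave log2 0.33 ± 0.14 (adjusted p = 0.0702).

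Inside Clca1, the peak at chr3:145022631-145023131 had 7.25 and 7.51 CPM in AA libraries, 7.40 and 6.71 CPM in PGE2 libraries, and 3.22 and 4.27 CPM in vehicle libraries. Every treated library was above both vehicle libraries. It rose 1.97-fold with AA (log2 0.97 ± 0.17 SE, adjusted p = 2.12e-05) and 1.88-fold with PGE2 (log2 0.91 ± 0.18, adjusted p = 9.57e-05), and both calls held under all 13 alternatives. For AA against PGE2 the log2 difference was 0.06 (95% interval -0.24 to 0.37).

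The Clca1 peak with the most counts, 11424 bp below the gene (chr3:144992551-144993674), had 43.3 and 39.8 CPM in AA libraries, 38.8 and 39.5 CPM in PGE2 libraries, and 34.0 and 31.6 CPM in vehicle libraries. It rose 1.27-fold with AA (adjusted p = 0.000325) and 1.19-fold with PGE2 (adjusted p = 0.00937), neither called by DESeq2 (adjusted p = 0.0528 and 0.23), and the PGE2 call was lost without vehicle replicate 2. Nearer to the gene, the peak at chr3:145000876-145001468 went the other way, with 6.33 and 5.38 CPM in AA libraries, 7.40 and 9.57 CPM in PGE2 libraries, and 8.35 and 8.47 CPM in vehicle libraries. It was lower with AA than with vehicle (log2 -0.51 ± 0.15, adjusted p = 0.00902) and than with PGE2 (log2 -0.53 ± 0.15, adjusted p = 0.0217), and DESeq2 made neither call (adjusted p = 0.208 and 0.313). Without AA replicate 2 both calls were lost, the one against vehicle also without vehicle replicate 2, and the one against PGE2 also without AA replicate 1 or PGE2 replicate 2. A peak inside the gene at chr3:145029533-145029964 had 5.21 and 4.89 CPM in AA libraries, 3.97 and 3.16 CPM in PGE2 libraries, and 3.37 and 3.20 CPM in vehicle libraries. It rose 1.54-fold with AA (adjusted p = 0.0127), a call lost by DESeq2 (adjusted p = 0.229) and without AA replicate 1 or either vehicle library. The peak at the gene's high-coordinate end was among the weakest, at 1.29 ± 0.13 CPM with AA, 1.04 ± 0.39 CPM with PGE2 and 0.649 ± 0.38 CPM with vehicle (SD, n = 2), and was not called. Clca1 has close relatives beside it in the genome, and how reads of similar copies were placed is not given in the sources used here.

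**Figure D4:**
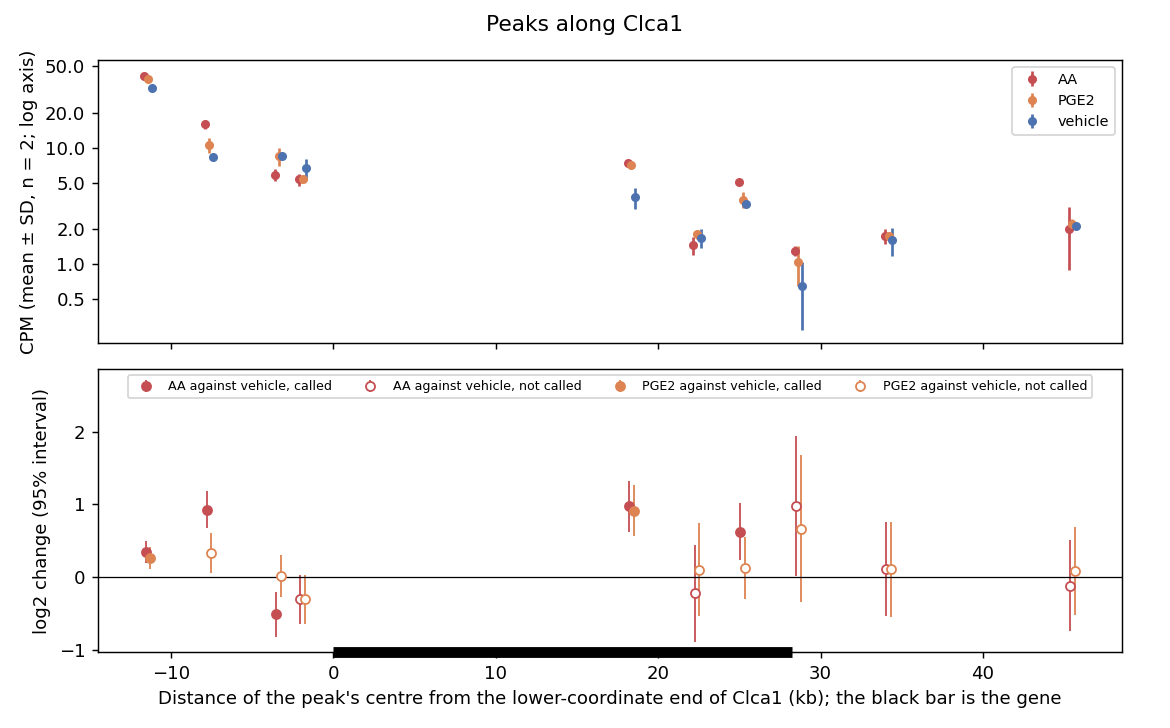
Peaks along Clca1, placed by the distance of their centre from the gene's low-coordinate end in kb, with points offset sideways for visibility. The upper panel gives mean CPM ± SD (n = 2, log axis) in AA, PGE2 and vehicle organoids and the lower panel the log2 change with its 95% interval. The peak inside the gene that lies 9895 bp from its high-coordinate end is higher with both treatments. The one 7670 bp below the gene stands out with AA.

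Tff3 encodes a trefoil peptide that goblet cells secrete with the mucin and that aids repair of the lining. It had 6 peaks, and 0 of them were called with AA, with 1 at an unadjusted p under 0.05 by edgeR and 0 by DESeq2. PGE2 made 1 higher. That peak, 781 bp inside the gene (chr17:31125966-31126208), had 1.83 and 1.63 CPM in AA libraries, 2.82 and 3.09 CPM in PGE2 libraries, and 1.15 and 1.45 CPM in vehicle libraries. PGE2 libraries were above all others. It rose 2.26-fold with PGE2 (log2 1.18 ± 0.29 SE, adjusted p = 0.00183), and the call held in the other 12 alternatives, while DESeq2 gave it no adjusted p. AA against PGE2 gave log2 -0.76 ± 0.27 (adjusted p = 0.0635). The peak at the other end of Tff3 (chr17:31129597-31129793) had 3.08 ± 0.37 CPM with AA, 3.53 ± 0.24 CPM with PGE2 and 3.40 ± 0.59 CPM with vehicle (SD, n = 2), with overlap of the treated and vehicle groups. The 3 stronger peaks beyond that end, between Tff3 and Tff2, were called in no comparison and had vehicle means of 9.59 to 16.7 CPM. The one with the most counts (chr17:31134764-31135386) had 14.6 and 14.0 CPM in AA libraries, 16.5 and 15.7 CPM in PGE2 libraries, and 16.2 and 17.3 CPM in vehicle libraries (log2 -0.23 for AA against vehicle, 95% interval -0.44 to -0.02, adjusted p = 0.0976).

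Fcgbp encodes a large mucus protein with von Willebrand domains that is found bound to Muc2 in the gel. Its 11 peaks were called in no comparison by edgeR. By edgeR 0 had an unadjusted p under 0.05 for AA against vehicle, 1 for PGE2 against vehicle and 0 for AA against PGE2, and DESeq2 gave 0 in each. Its start peak (chr7:28070559-28071309), which holds the Fcgbp sequence shown above, had 29.2 and 28.0 CPM in AA libraries, 29.0 and 31.8 CPM in PGE2 libraries, and 31.2 and 29.4 CPM in vehicle libraries. The log2 change was -0.08 for AA (95% interval -0.25 to 0.08) and 0.00 for PGE2 (-0.16 to 0.17), and per length the peak was strong, above 89.8% of gene-end peaks. The 4 peaks with vehicle means below 2 CPM at the far end of the gene had wide intervals, as at chr7:28113766-28113967, where PGE2 against vehicle gave log2 1.04 (0.01 to 2.07, adjusted p = 0.134).

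Zg16 encodes a lectin-like protein of the mucus that binds bacterial cell walls. Its 1 peak (chr7:127070740-127071607) was 18498 bp above the gene and 19606 bp from the next gene, AI467606. It had 52.9 and 53.0 CPM in AA libraries, 48.8 and 48.8 CPM in PGE2 libraries, and 42.7 and 44.5 CPM in vehicle libraries. AA libraries were the highest and vehicle libraries the lowest, with no overlap. The peak rose 1.21-fold with AA (log2 0.28 ± 0.07 SE, adjusted p = 0.000779), a call that DESeq2 did not make (adjusted p = 0.0848), and PGE2 against vehicle gave log2 0.16 ± 0.07 (adjusted p = 0.0651).

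Agr2 encodes the disulfide isomerase of the endoplasmic reticulum that Muc2 needs for folding. Its clearest change was at a small peak 7956 bp before its start (chr12:35984835-35985103), which had 6.54 and 5.87 CPM in AA libraries, 5.34 and 6.17 CPM in PGE2 libraries, and 2.30 and 2.44 CPM in vehicle libraries. Every treated library was more than 2 CPM above both vehicle libraries. The peak rose 2.62-fold with AA (log2 1.39 ± 0.20 SE, adjusted p = 4.14e-07) and 2.42-fold with PGE2 (log2 1.28 ± 0.20, adjusted p = 4.95e-06). Both calls held under all 13 alternatives, with adjusted p of at most 0.000465 and 0.00216. For AA against PGE2 the log2 difference was 0.11 (95% interval -0.21 to 0.44).

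The Agr2 start peak (chr12:35992334-35994123), which holds the Agr2 sequence shown above, had 32.9 and 40.1 CPM in AA libraries, 35.4 and 35.3 CPM in PGE2 libraries, and 40.0 and 37.1 CPM in vehicle libraries. AA and vehicle libraries overlapped, and PGE2 libraries lay below vehicle. The log2 change was -0.08 for AA (95% interval -0.24 to 0.08) and -0.12 for PGE2 (-0.29 to 0.04). The weaker peak at the other end of Agr2, 776 bp past it (chr12:36004740-36004975), had 4.57 and 4.89 CPM in AA libraries, 2.44 and 4.24 CPM in PGE2 libraries, and 3.68 and 2.82 CPM in vehicle libraries. AA libraries were above all others, and the peak was called in no comparison (log2 0.54 for AA against vehicle, 95% interval 0.10 to 0.97, adjusted p = 0.0526). A peak 4307 bp past the end of Agr2 had 29.8 and 32.6 CPM in AA libraries, 27.2 and 27.0 CPM in PGE2 libraries, and 24.6 and 27.1 CPM in vehicle libraries, and rose 1.21-fold with AA (adjusted p = 0.0127). A peak 11056 bp before the start had 20.0 and 21.0 CPM in AA libraries, 17.6 and 19.4 CPM in PGE2 libraries, and 23.4 and 21.8 CPM in vehicle libraries, and was lower with PGE2 (log2 -0.29 ± 0.10, adjusted p = 0.0234). DESeq2 made neither call (adjusted p = 0.212 and 0.276). The AA call was also lost without vehicle replicate 1 or AA replicate 2, and the PGE2 call without either vehicle library or PGE2 replicate 1 and with gene-end peaks scaled on their own.

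When the counts of all peaks of a gene were summed, in which strong peaks weigh most, AA made Clca1 and Zg16 higher and Muc13 and Muc2 lower than vehicle. These are 2 higher and 2 lower of the 9 genes, beside 16.3% higher and 15.9% lower, or 32.2% in all, of 16762 genes. PGE2 made Clca1 higher and Muc13, Muc2 and Muc4 lower, 1 and 3 genes, beside 20.8% and 17.7%, or 38.5% in all. AA was above PGE2 at Muc13, Clca1 and Agr2, and below it at 0 genes, with 5 of 9 at an unadjusted p under 0.05 by edgeR and 3 by DESeq2, of which DESeq2 called 0, beside 8.7% higher and 8.96% lower, or 17.7% in all.

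Clca1 had summed levels of 104 and 102 CPM in AA libraries, 94.1 and 90.8 CPM in PGE2 libraries, and 81.3 and 84.0 CPM in vehicle libraries. AA libraries were the highest and vehicle libraries the lowest, with no overlap. The sum rose 1.25-fold with AA (log2 0.32 ± 0.05 SE, adjusted p = 0.000103), which held under all 11 alternatives, and 1.12-fold with PGE2 (log2 0.16 ± 0.05, adjusted p = 0.0176), which was lost by DESeq2 (adjusted p = 0.136) and without either vehicle library or PGE2 replicate 1. Muc13 had 157 and 154 CPM in AA libraries, 145 and 136 CPM in PGE2 libraries, and 173 and 179 CPM in vehicle libraries. PGE2 libraries were the lowest. The Muc13 sum fell by 0.33 on the log2 scale with PGE2 (± 0.04 SE, adjusted p = 1.16e-05), which held under all 11 alternatives, and by 0.18 with AA (± 0.04, adjusted p = 0.00212), which was lost without vehicle replicate 2 (adjusted p = 0.0582).

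Muc2 had summed levels of 35.3 and 33.9 CPM in AA libraries, 33.2 and 36.9 CPM in PGE2 libraries, and 42.4 and 40.4 CPM in vehicle libraries. The sum fell by 0.26 on the log2 scale with AA (± 0.08 SE, adjusted p = 0.0201) and by 0.24 with PGE2 (± 0.08, adjusted p = 0.0248), and each call was lost by DESeq2 (adjusted p = 0.184 and 0.179) and without either vehicle library. Without either AA library the AA call was lost, and without PGE2 replicate 1 the PGE2 call. Of the Muc2 peaks, the one 16316 bp past the gene held the most counts, with 20.2 CPM in vehicle organoids beside 6.54 CPM at the start. Muc4 had 172 and 166 CPM in AA libraries, 156 and 155 CPM in PGE2 libraries, and 163 and 176 CPM in vehicle libraries, and its fall with PGE2 (log2 -0.12 ± 0.04, adjusted p = 0.0259) was lost by DESeq2 (adjusted p = 0.168) and without vehicle replicate 2. Zg16 had 62.4 and 62.1 CPM in AA libraries, 56.4 and 55.2 CPM in PGE2 libraries, and 50.9 and 53.2 CPM in vehicle libraries, and its rise with AA (log2 0.26 ± 0.06, adjusted p = 0.00431) was lost by DESeq2 (adjusted p = 0.0599) and without vehicle replicate 1.

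Between the treatments, Agr2 had 123 and 135 CPM in AA libraries and 114 and 116 CPM in PGE2 libraries (log2 0.16 ± 0.05, adjusted p = 0.0315), Muc13 differed by log2 0.15 ± 0.04 (adjusted p = 0.0201) and Clca1 by log2 0.15 ± 0.05 (adjusted p = 0.0363). All of these were lost by DESeq2 and without AA replicate 2, and each also without 2 or more of the other libraries. The log2 changes of Muc1, Tff3 and Fcgbp sums lay between -0.13 and 0.09 in the vehicle comparisons and none was called.

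**Figure D5:**
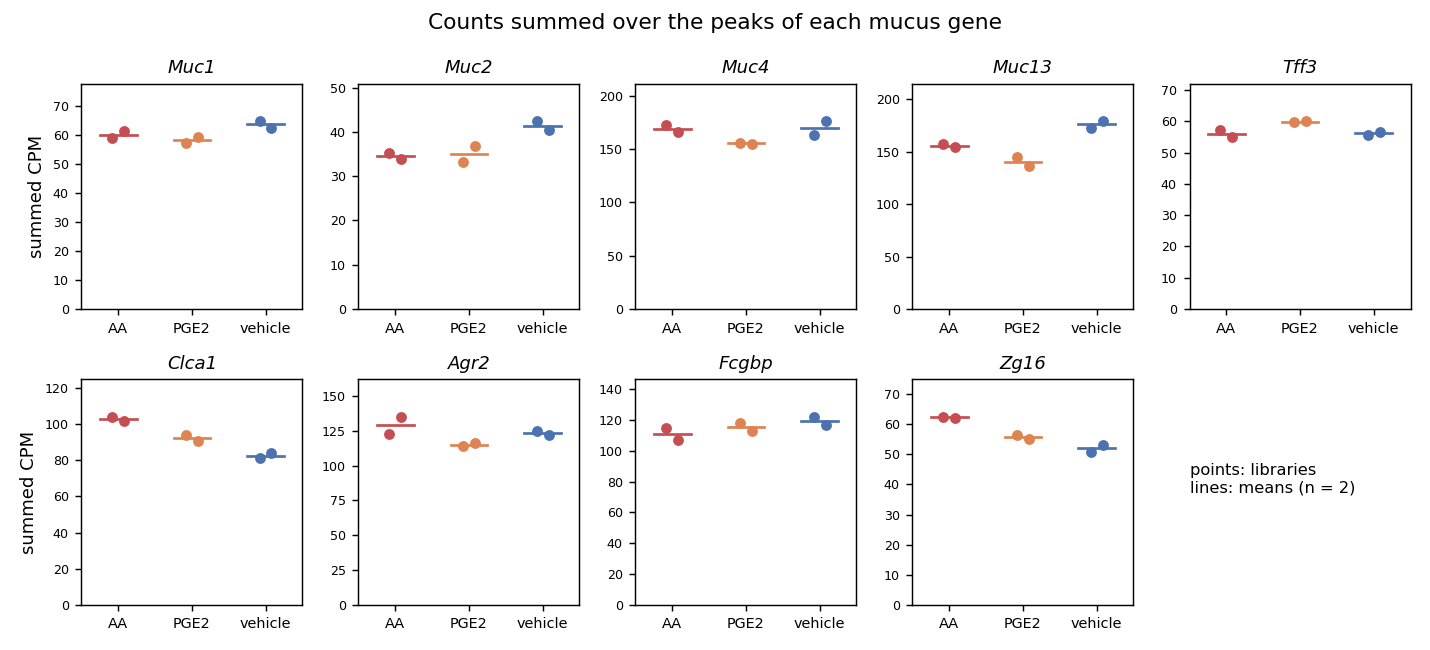
Counts summed over all peaks of each gene, as CPM per library (points) with the mean of each group (lines, n = 2), for AA, PGE2 and vehicle organoids; each axis starts at 0 and has its own range. Clca1 is highest with AA (104 and 102 CPM) and lowest with vehicle (81.3 and 84.0 CPM), and Muc13 is lowest with PGE2 (145 and 136 CPM).

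Other mucus genes were taken from lists that hold none of the 9 genes. Of 10 further mucin genes, 8 were in the gene annotation used, and Muc17 and Muc19 were not and could not be examined. Of the 8, 3 had no peak and 5 had peaks, 15 in all. At the membrane mucin Muc3, AA made 1 peak higher than vehicle (log2 0.47 ± 0.18 SE, adjusted p = 0.0432) and 1 peak, 34 bp from a gene end, higher than PGE2 (log2 0.57 ± 0.12, adjusted p = 0.00108). These were the only calls among these mucins, 1 of 15 peaks in each comparison (6.67%, against 30.5% of all peaks for AA against vehicle), and DESeq2 made neither. PGE2 against vehicle gave 0 by edgeR, with 2 of 15 at an unadjusted p under 0.05, and 0 by DESeq2, with 0 unadjusted. Of 14 genes of other secreted products, 12 had 48 peaks, of which AA made 7 higher and 13 lower (41.7%, against 30.5% of all peaks) and PGE2 made 5 higher and 12 lower (35.4%, against 24.9%), with medians of -0.09 and -0.12 on the log2 scale.

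Among these, relatives of Clca1 held the higher peaks with the smallest p with AA. A peak inside Clca4a had 19.4 ± 0.045 CPM with AA, 15.2 ± 0.39 CPM with PGE2 and 9.25 ± 0.52 CPM with vehicle (SD, n = 2), a 2.09-fold rise with AA (adjusted p = 3.59e-10) and a 1.64-fold rise with PGE2 (adjusted p = 8.48e-06). Clca4b rose 1.91-fold with AA at a peak 23794 bp away (adjusted p = 1.39e-07). Agr3, the neighbour and relative of Agr2, was lower with AA at a peak inside the gene, at 7.19 ± 0.59 CPM against 12.8 ± 0.18 CPM with vehicle (log2 -0.82 ± 0.13, adjusted p = 4.09e-06). The trefoil gene Tff1 was 2.23-fold lower with AA at its 1 peak (adjusted p = 2.35e-05). Spink4, a goblet cell peptide gene, was 1.35-fold lower with PGE2 at a peak 24653 bp away (adjusted p = 3.12e-05), and Clca2 was lower with PGE2 inside the gene (log2 -0.81 ± 0.17, adjusted p = 0.000221).

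For 24 enzymes of mucin glycosylation, AA made 28 of 189 peaks higher and 27 lower, and PGE2 made 24 higher and 23 lower, shares of 29.1% and 24.9%, against 30.5% and 24.9% of all peaks. Gcnt3, which branches mucin glycans, rose 2.09-fold with AA at a peak 14372 bp away (adjusted p = 9.95e-09). Chst4, a sulfotransferase, was lower at a peak 11960 bp away with AA (log2 -1.07 ± 0.14, adjusted p = 7.59e-08) and with PGE2 (log2 -0.81 ± 0.14, adjusted p = 1.23e-05). Of its 8 peaks, AA made 2 higher and 2 lower, and PGE2 made 4 lower. For 20 genes of the secretory pathway and granules, AA made 20 of 136 peaks higher and 14 lower (25.0%, against 30.5% of all peaks). PGE2 made 21 higher and 14 lower (25.7%, against 24.9%). Sytl2, which tethers granules, rose inside the gene 2.40-fold with AA (adjusted p = 5.11e-11) and 1.98-fold with PGE2 (adjusted p = 8.36e-08). Cftr, the chloride and bicarbonate channel that helps mucus unfold, rose 2.41-fold with AA at one peak inside the gene (adjusted p = 6.55e-08) and was lower with PGE2 at another (log2 -0.49 ± 0.09, adjusted p = 1.87e-05). Of the 12 Cftr peaks, AA made 3 higher and 1 lower, and PGE2 made 2 higher and 2 lower.

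For 17 regulators of the goblet and secretory lineages, 16 of which had peaks, AA made 22 of 147 peaks higher and 20 lower (28.6%, against 30.5% of all peaks). PGE2 made 21 higher and 12 lower (22.4%, against 24.9%). Klf4, a factor needed for goblet cell maturation, rose 2.81-fold with AA at a peak 46528 bp away (adjusted p = 2.97e-07) and 1.76-fold with PGE2 at a peak 452 bp from a gene end (adjusted p = 7.55e-08). Of the 12 Klf4 peaks, AA made 3 higher and 1 lower, and PGE2 made 3 higher and 0 lower. A peak assigned to Sox9, a factor of crypt progenitors and Paneth cells, 47856 bp from the gene, was lower with AA (log2 -0.81 ± 0.08, adjusted p = 1.06e-10) and with PGE2 (log2 -0.40 ± 0.08, adjusted p = 0.000104). Of the 9 Sox9 peaks, each treatment made 1 higher and 1 lower than vehicle. Atoh1, which commits cells to the secretory lineage, was 1.52-fold higher with AA than with PGE2 at a peak 43007 bp away (adjusted p = 0.0247). Between AA and PGE2, the shares called were 6.67% for the mucins, 20.8% for the secreted products, 8.99% for the glycosylation enzymes, 8.09% for the granule genes and 9.52% for the regulators, against 9.95% of all peaks.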

How the data were processed

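The authors deposited 1 table of raw counts per consensus peak for 6 ATAC-seq libraries, 2 each of AA, PGE2 and vehicle. They came, per the file headers, from featureCounts 1.6.3 on read pairs, with each read taken at its 5′ end. Per the submitters' processing notes, Trim Galore, BWA, Picard, SAMtools and MACS2 were used with build mm10. Whether reads were shifted for the transposase offset is not given in the sources used here, and such a shift is small against the median peak length of 547 bp. With 1 peak set for all libraries, a region outside it was not measured.

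Peaks were assigned to the nearest gene end in the RefSeq gene table of GRCm38.p6, which gives no strand here, and 76 peaks with tied nearest genes were left out. Exon, intron and UTR annotation was not used here. filterByExpr removed 1476 peaks and left 89347, with all 63 mucus gene peaks among them. edgeR 4.0.16 (R 4.3.3) fitted all 6 libraries at once with TMM scaling (factors 0.969 to 1.02), robust quasi-likelihood dispersion and group as the term, leaving 3 residual degrees of freedom, beside a median of 42.3 prior degrees of freedom. p-values were adjusted by Benjamini-Hochberg over all peaks, or over all 16762 genes for summed counts, with a threshold of 0.05. CPM used the same scaling, and standard errors and intervals were derived from the test's F. The fit was also run on simulated counts with the same dispersion for every peak and group. The outcome of that run is not reported here. The median biological coefficient of variation was 4.49%. Weak peaks carry fewer counts and larger errors.

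Replicate libraries were compared by a chi-square of their counts, which per degree of freedom was 1.124 in AA, 1.553 in PGE2 and 1.101 in vehicle organoids. All were above the 1 of pure counting, and PGE2 was the highest. Such values cannot tell separate cultures from technical copies. In the fit the groups shared 1 estimate of the spread at each peak, which rested mostly on the prior drawn from all peaks. The larger spread of PGE2 libraries was thus not kept apart, and p-values do not measure the spread of each group on its own. All 6 libraries were kept as separate samples.

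The 9 genes and the lists of other genes were chosen with earlier results of these data known. The peaks named were, for each of the 9 genes, those within 1 kb of a gene end, the one with the most counts and the 3 called peaks with the smallest p in each comparison. A Clca1 peak inside the gene, a weak Fcgbp peak, the peaks before the Muc13 start and the ends of the Muc13 stretch fall outside this rule and were named after their values were seen. For other lists they were drawn from each direction's 2 called peaks of smallest p, 1 per gene, and not all of these are named. Among those left out, higher peaks of Galnt4 with AA, Pdia3 with PGE2 and Ets2 with each treatment had a smaller p than the peak named. Pdia3 rose 1.95-fold with PGE2 at a gene end (edgeR adjusted p = 6.96e-13). Alternatives were other scalings, no filter, DESeq2 1.42.0, each library left out, the replicate number as a block, a 10 kb window and the compared groups alone. One, in which gene-end peaks were scaled apart from all others, was chosen after seeing the data.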

Additional observations from a re-analysis of the deposited data

How the results depend on the processing

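No call at the 9 genes reversed its direction under any of the alternatives. For the calls named from the lists of other genes, no such check was made. DESeq2 made fewer calls, with 5 peaks higher and 1 lower for AA against vehicle, 2 and 2 for PGE2 against vehicle, and 0 and 0 for AA against PGE2 (3 at an unadjusted p under 0.05, beside 10 by edgeR). It gave no adjusted p to 3, 12 and 32 of the 63 peaks in these comparisons, so its counts are over 60, 51 and 31 peaks. Its calls were also fewer over all peaks. There it called 6056 higher and 3002 lower with AA, beside 14911 and 12370 by edgeR. With PGE2 it called 5299 and 2078, beside 12809 and 9448. For AA against PGE2 it called 229 and 353, beside 4523 and 4363. For summed counts DESeq2 called 1 gene higher and 1 lower with AA, 0 and 1 with PGE2, and 0 higher in AA than in PGE2. Over all genes it called 1421 higher and 1092 lower with AA, beside 2738 and 2665 by edgeR. With PGE2 it called 1945 and 1261 genes, beside 3485 and 2967. The cause of the lower DESeq2 counts was not tested. Within 10 kb of a gene end 50 of the peaks remained, of which AA made 8 higher and 6 lower, and PGE2 made 4 higher and 6 lower. Of the 13 peaks farther out, AA made 2 higher and 4 lower, and PGE2 made 1 higher and 5 lower. The lower calls thus rest in part on the wider window. When gene-end peaks and all others got separate scaling factors, an alternative chosen after seeing the data, 9 peaks were higher with PGE2 than with vehicle and 2 were lower with AA than with PGE2.

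Leaving out each library in turn gave 5 to 12 peaks lower with AA, 5 to 11 lower with PGE2, and 2 to 4 higher and 0 to 1 lower in AA than in PGE2. The lowest counts of lower peaks against vehicle came without vehicle replicate 2, and the fewest peaks higher with AA, 7, without vehicle replicate 1. For summed counts it gave 1 to 2 genes higher and 0 to 2 lower with AA, 0 to 1 higher and 1 to 3 lower with PGE2, and 0 to 4 higher in AA than in PGE2. A group left with 1 library was assumed to vary like the others. The replicate block gave 10 peaks higher and 11 lower with AA, 5 and 11 with PGE2, and 2 and 1 for AA against PGE2, and 2 and 2, 1 and 3, and 3 and 0 genes. Libraries with the same number did not deviate together (correlations of 0.005, -0.02 and 0.036), so the numbers were not taken to pair them. Peaks with about 1 to 4 CPM limit what could be detected.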

Other observations

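Across the 6 libraries, the summed accessibility of Muc2 was most like that of Sorbs2 (r = 0.996), Rassf2 (r = 0.996), Olfr782 (r = 0.995), Tppp (r = 0.994) and Nek5 (r = 0.993), by Pearson's r of log2(CPM + 0.5) among 14236 genes. The 6 libraries form 3 groups of 2, and 581 genes had an r over 0.9. They are given as a description with no test.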
